A study of Canis lupus familiaris with 58 samples.

Results

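The 20 tumours compared here were lymph node samples of canine diffuse large B-cell lymphoma (DLBCL, a fast-growing cancer made of enlarged B cells) that lay at either end of a ranking by CD3E, the epsilon chain of the CD3 complex that carries the T-cell receptor signal. They were chosen by the level of CD3E alone. All 32 lymph node samples diagnosed as DLBCL were ranked by whichever CD3E probe set had the higher average across the series, and the 10 highest formed the CD3E-high group and the 10 lowest the CD3E-low group, with 12 nodes in between. The whole series held 58 dogs, 1 array per dog, with 7 lymph nodes of marginal zone lymphoma (MZL) and 19 fine needle aspirates of B-cell lymphoma beside the 32 DLBCL nodes. Every sample was taken from a client-owned pet dog before treatment and was typed as B-cell lymphoma by flow cytometry or immunohistochemistry, and no other treatment or genotype separated the groups in the labels. All values are log2 expression levels, so a difference of 1 is a doubling.

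Lymph nodes with B-cell lymphoma hold tumour B cells together with T cells, macrophages, stroma and vessels, and RNA from a whole node mixes them all. T cells are marked by the CD3 chains, by surface molecules such as CD2, CD5 and CD7, and by the constant and variable segments of the T-cell receptor. In such bulk RNA a lower level can mean fewer T cells or less RNA per T cell, and these cannot be told apart. CD3E itself chose the groups, so its levels are a description: it ran from 9.44 to 10.19 in the CD3E-high nodes (9.65 ± 0.22, SD, n = 10) and from 8.82 to 9.25 in the CD3E-low nodes (9.15 ± 0.13, n = 10). The cuts passed through a near-continuous range. The 10th node had a level of 9.44 and the 11th, just outside, 9.42, while the 22nd and the 23rd both stood at 9.25.

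**Figure D1:**
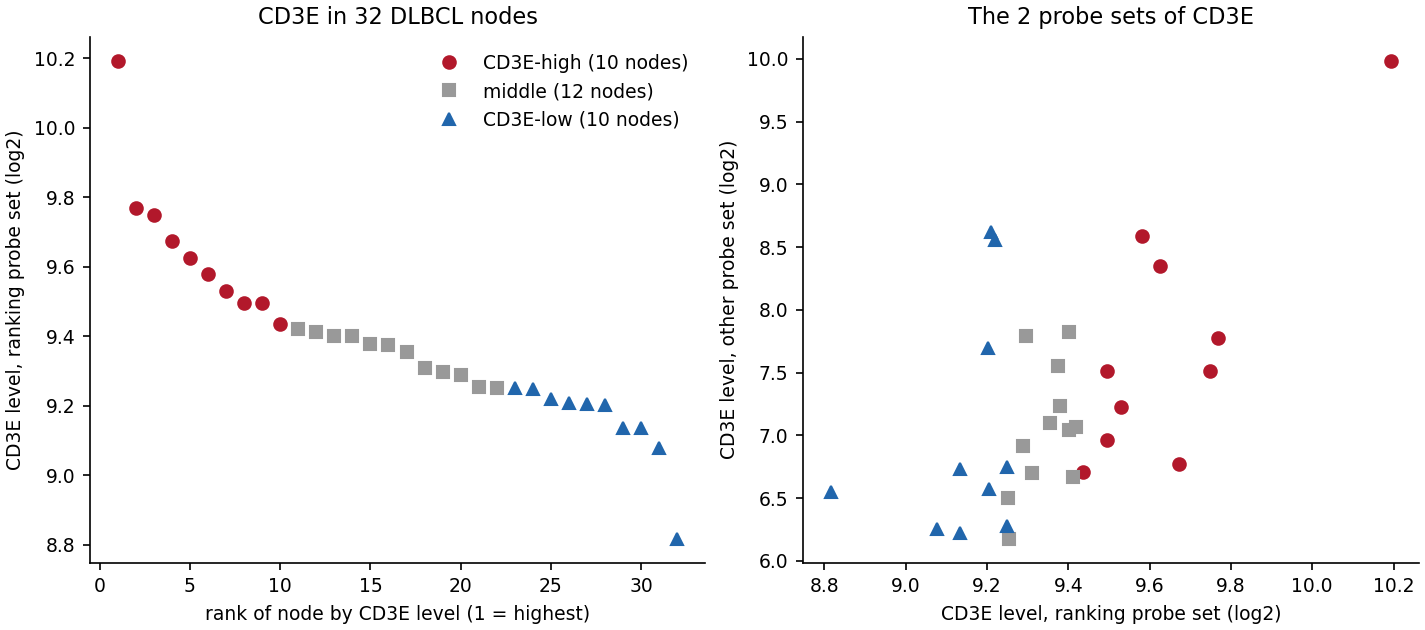
Left, the CD3E level (log2) of each of the 32 DLBCL nodes against its rank, with the CD3E-high nodes as circles, the middle nodes as squares and the CD3E-low nodes as triangles. Right, the ranking probe set against the other CD3E probe set in the same nodes (Pearson r = 0.60), where 3 CD3E-low nodes are among the 10 highest by the other probe set.

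The label of T-cell-rich and T-cell-poor nodes was only partly borne out by other T-cell genes. The array holds 2 probe sets for CD3E, and in the 32 nodes they correlated at r = 0.60. The other probe set would have put 4 of the 10 CD3E-high nodes in its own top 10 and 5 of the 10 CD3E-low nodes in its own bottom 10. CD3D and CD3G, the delta and gamma chains of the same complex, did not go with CD3E: Pearson r was 0.0057 for CD3D (permutation p = 0.974; Spearman rho -0.099, permutation p = 0.588) and -0.13 for CD3G (permutation p = 0.495; rho -0.24, permutation p = 0.193). CD247, the zeta chain, had r = -0.097 (permutation p = 0.600) and rho = -0.17 (permutation p = 0.364). CD2, an adhesion receptor of T and natural killer cells, had r = -0.22 (permutation p = 0.235) and rho = -0.34 (permutation p = 0.0570). CD3D and CD3G went with each other, at r = 0.70 (permutation p = 3e-05) and rho = 0.79 (permutation p = 1e-05, the smallest that the permutations allow). Adjusted over the 13 pairs computed, Pearson's permutation p was 0.974 for CD3D, 0.585 for CD3G, 0.650 for CD247 and 0.306 for CD2 against CD3E. The groups are therefore called CD3E-high and CD3E-low here.

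For 6 other T-cell genes, chosen after gene values in these nodes had been seen, the correlation with CD3E is given as a description with no test. CD5, a scaffold receptor that tunes T-cell receptor signals and is also carried by some B cells, had r = 0.72 and rho = 0.73. LEF1, a transcription factor of naive and developing T cells, had r = 0.81 and rho = 0.62. CD7, an early T-cell surface marker, had r = 0.70 and rho = 0.49, and the costimulatory receptor CD28 had r = 0.61 and rho = 0.49. LOC480788 and LOC609053 are entries that RefSeq types as constant-region segments and that lie between EPHB6 and PRSS2 beside V segments, the usual setting of the T-cell receptor beta chain. Their r was 0.75 and 0.83, and their rho 0.71 and 0.65. Without the 2 nodes farthest from the median CD3E level (dogs 32 and 39), r was 0.67 for CD5, 0.65 for LEF1, 0.48 for CD7, 0.59 for CD28, 0.71 for LOC480788, 0.71 for LOC609053, -0.087 for CD3D and -0.26 for CD3G.

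RMA array medians over the series lay between 7.08 and 7.20, and CD3E-high arrays had a median of 7.16 ± 0.030 (SD, n = 10) against 7.14 ± 0.026 in CD3E-low arrays (permutation p = 0.140). RNA integrity was read from the difference between 3' and 5' probe sets of the GAPDH and ACTB controls, where a larger value means more degraded RNA. It was 0.79 ± 1.06 in CD3E-high and 0.42 ± 0.20 in CD3E-low nodes, a difference within the spread between dogs (permutation p = 0.285). A single CD3E-high node, dog 41, reached 3.77, and without it the groups stood at 0.46 and 0.42 (exact permutation p = 0.573).

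No gene passed the threshold between CD3E-high and CD3E-low nodes, and the ranges of the groups overlapped for all 15114 genes tested. PTGDR and CD5 had the smallest p-values among genes with higher means in CD3E-high nodes. PTGDR, a receptor for prostaglandin D2, ran from 6.05 through a median of 6.38 to 6.86 in CD3E-high nodes and from 5.66 through 5.86 to 6.26 in CD3E-low nodes. All 10 CD3E-high nodes lay above the CD3E-low median, and the difference was 0.53 ± 0.10 (SE; limma, Benjamini-Hochberg adjusted p = 0.567). CD5 ran from 8.18 through 8.45 to 8.96 against 7.74 through 8.03 to 8.27, again with all 10 CD3E-high nodes above the other median. Its difference was 0.45 ± 0.10 (adjusted p = 0.857). In limma 0 of 15114 genes (0%) had an adjusted p under 0.05 and 853 had an unadjusted p under 0.05, 687 of them higher in CD3E-high nodes (4.55% of all genes) and 166 lower (1.10%). Chance gives 755.7. The exact rank-sum test also called 0, with 865 at an unadjusted p under 0.05. The 687 higher genes became 1155 without dog 6, 1094 without dog 18 and 451 without dog 39, and the 166 lower genes became 322 without dog 14. With CD3E ranked over 8 against 8 nodes they were 1160 and 411.

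The excess of higher over lower genes depended on the ranking: with nodes ranked by the other CD3E probe set 602 genes were higher and 925 lower at an unadjusted p under 0.05, and by the mean of CD3D, CD3G, CD2 and CD5 441 and 543. In the CD3E ranking the excess was largest among genes of low level. Of the 3779 genes with the lowest mean level 265 were higher and 33 lower at an unadjusted p under 0.05, with a median difference of 0.049, while of the 3779 with the highest mean level 63 were higher and 32 lower, with a median of 0.0035. Over all genes the median difference was 0.036 and 62.4% of genes were higher in CD3E-high nodes. With each array centred on its median, 56.0% were higher, and 505 genes were higher and 210 lower at an unadjusted p under 0.05. The small shift in array medians moved with these counts, and its part in them was not tested.

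The other CD3 chains had lower means in CD3E-high nodes, by amounts that did not pass. CD3D ran from 11.62 through 12.96 to 13.46 in CD3E-high nodes and from 11.56 through 13.11 to 13.30 in CD3E-low nodes, a difference of -0.076 ± 0.24 (SE, adjusted p = 0.970). CD3G ran from 8.20 through 10.53 to 11.81 against 8.65 through 11.33 to 11.62. The CD3E-high nodes spread more widely for CD3G, with an SD of 1.29 against 0.88, and the difference was -0.78 ± 0.47 (adjusted p = 0.857). CD247 differed by -0.25 ± 0.30, and CD2 by -0.45 ± 0.26, with 2 of 10 CD3E-high nodes above the CD3E-low median for CD2. The groups overlapped almost entirely for each of these 4 genes. Dog 25, a CD3E-low node, had the lowest CD3G of its group (8.65) and the lowest CD3D (11.56).

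**Figure D2:**
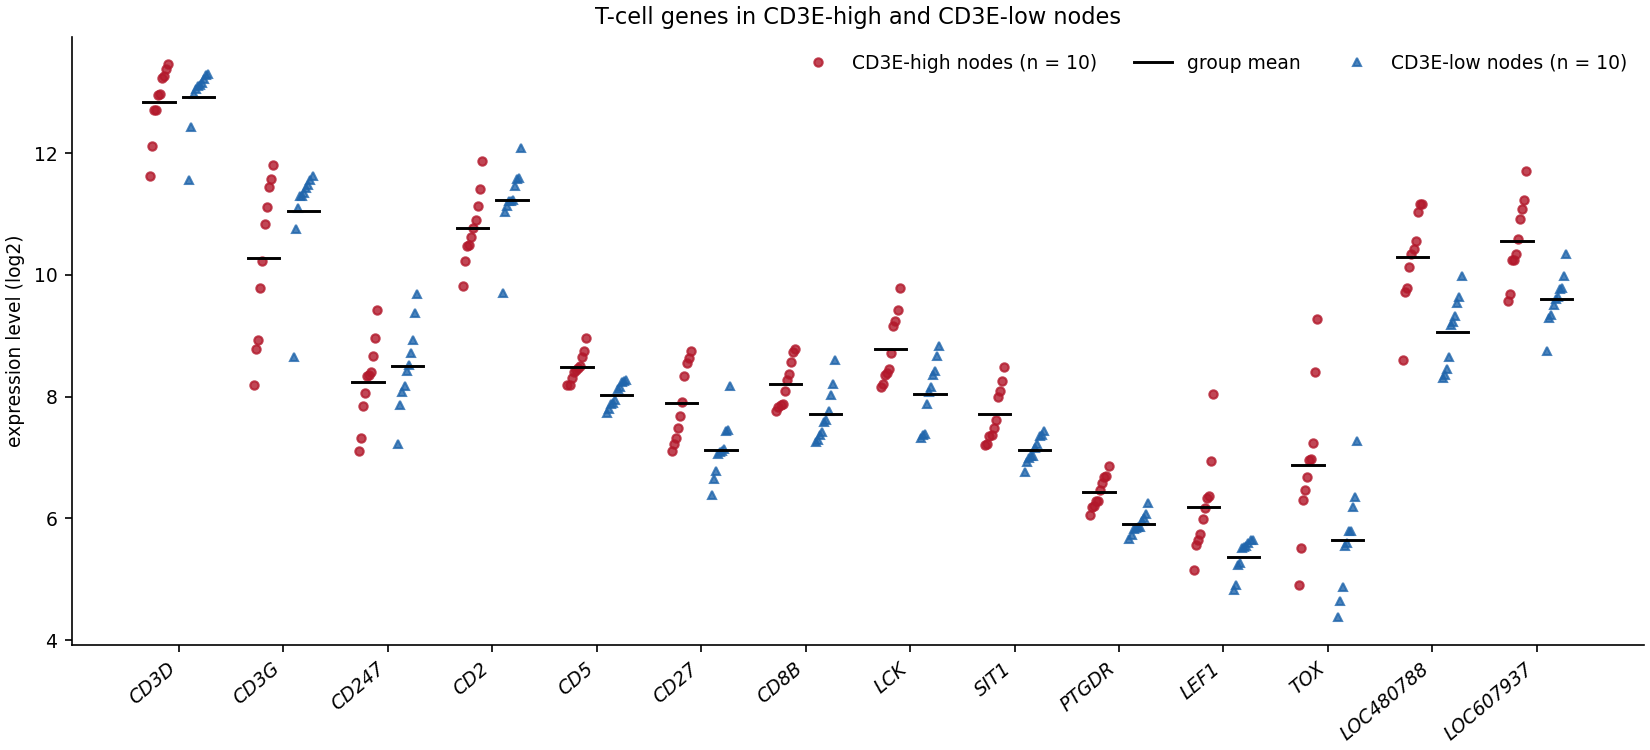
Expression level (log2) of 14 genes in each CD3E-high node (circles) and each CD3E-low node (triangles), 10 nodes a group, with the group mean as a bar. They are T-cell genes together with PTGDR, chosen for its small p in these nodes, and LOC607937, placed by its neighbours. The CD3D, CD3G, CD247 and CD2 means are no higher in the CD3E-high nodes, while CD5, PTGDR, LOC480788 and LOC607937 means are higher by 0.45 to 1.22.

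The 4 LOC entries described first here, all with positive differences, fall outside the naming rule and were chosen after their values were seen. LOC480788, the constant-region entry described above, ran from 8.60 through 10.38 to 11.17 in CD3E-high nodes and from 8.31 through 9.20 to 9.98 in CD3E-low nodes, with 9 of 10 CD3E-high nodes above the other median. The difference was 1.22 ± 0.29 (SE, adjusted p = 0.857). Its 5 probe sets all had higher means in CD3E-high nodes, by 0.029 to 1.22. LOC609053, the neighbouring constant-region entry, ran from 4.33 through 6.16 to 8.02 against 3.82 through 5.09 to 5.47, and differed by 1.17 ± 0.37. LOC607937 lies among V segments beside DAD1, the usual setting of the T-cell receptor alpha and delta chains. RefSeq does not type LOC607937 itself as a constant or V segment, so it was placed by its neighbours alone. It ran from 9.57 through 10.47 to 11.70 against 8.75 through 9.62 to 10.33. All of its 4 probe sets had positive differences (0.47 to 1.53), and the chosen one differed by 0.96 ± 0.24. LOC607750, a V segment in the same cluster, differed by 0.31 ± 0.13. Other entries that RefSeq types as constant or V segments differed in both directions. That type does not tell T-cell receptor from immunoglobulin segments, and these other entries were assigned to neither here. The largest differences among them were in V segments outside the DAD1 cluster, LOC607467 on chromosome 8 (-2.21 ± 1.08) and LOC608379 on chromosome 17 (1.08 ± 0.39). LOC609263 (0.047 ± 0.16) and LOC607343 (0.020 ± 0.26) had differences within their errors. The level of LOC609263 was low, at 3.66 against 3.61.

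A list of the T-cell receptor complex and the genes that act directly below it had 24 of 28 members measured. In CD3E-high nodes 14 were higher and 10 lower, with CD3D, CD3G and CD247 among the lower. Their median was 0.056 against 0.036 for all genes. None passed; 5 were higher at an unadjusted p under 0.05 and 1 lower, against the 4.55% and 1.10% of all genes. LCK, the kinase that starts receptor signalling, ran from 8.16 through 8.58 to 9.78 in CD3E-high nodes and from 7.33 through 8.12 to 8.83 in CD3E-low nodes. It differed by 0.75 ± 0.24 (SE, adjusted p = 0.857), with all 10 CD3E-high nodes above the other median. SIT1, a transmembrane adaptor that dampens the signal, ran from 7.20 through 7.55 to 8.49 against 6.76 through 7.09 to 7.44 and differed by 0.58 ± 0.16. THEMIS, an adaptor of T-cell selection, differed by 0.21 ± 0.069, PRKCQ, the protein kinase C theta of the T-cell synapse, by 0.22 ± 0.089, and UBASH3A, a negative regulator, by 0.33 ± 0.12. SKAP1, an adhesion adaptor, was the gene with a negative difference in that count, at -0.34 ± 0.16.

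Surface markers of the T lineage held the largest share of such genes. Of 17 measured (19 listed) 14 were higher and 3 lower, with a median of 0.18. At an unadjusted p under 0.05, 8 were higher and 0 lower, and none passed after adjustment. Of all genes 62.4% were higher, and at an unadjusted p under 0.05 4.55% were higher and 1.10% lower. CD27, a tumour necrosis factor receptor of naive and memory lymphocytes, ran from 7.11 through 7.80 to 8.74 against 6.39 through 7.10 to 8.17, a difference of 0.77 ± 0.24 (SE, adjusted p = 0.857). Its 2 probe sets disagreed in size, at 0.040 and 0.77. CD8B, the beta chain of the cytotoxic coreceptor, ran from 7.77 through 8.18 to 8.78 against 7.26 through 7.59 to 8.60 and differed by 0.50 ± 0.18. CD8A, its partner chain, differed by 0.13 ± 0.17 and CD4, the helper coreceptor, by 0.12 ± 0.079. CD7 (0.41), CD226 (0.37), CD96 (0.18), SLAMF1 (0.44) and CD28 (0.21), with CD5 as described above, were the other members of the 8.

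The T-cell transcription factor, naive, regulatory and helper lists all had positive medians, and no member passed. The median of all genes was 0.036, and that of the naive list lay below it. Of 13 transcription factors measured, 10 were higher (62.4% of all genes were), with a median of 0.061. TOX, a factor of T-cell development and of exhausted and follicular helper T cells, ran from 4.90 through 6.82 to 9.28 in CD3E-high nodes and from 4.38 through 5.69 to 7.27 in CD3E-low nodes, a difference of 1.23 ± 0.46 (SE, adjusted p = 0.857). LEF1 ran from 5.15 through 6.08 to 8.05 against 4.83 through 5.52 to 5.64 and differed by 0.82 ± 0.26. Its top value, in dog 32, belonged to the node with the highest CD3E. TCF7, a close relative of LEF1, differed by 0.012 ± 0.070, and the naive T-cell list as a whole had a median of 0.012 over 11 genes. FOXP3, the factor of regulatory T cells, stood at 5.51 in both groups (difference -0.0026 ± 0.060), and the regulatory list had a median of 0.086 over 13 genes. CXCL13, a chemokine of follicular helper and follicular dendritic cells, differed by 0.84 ± 0.53 within a range of 6.98 to 12.10, and PDCD1, an inhibitory receptor of the same helper cells, by 0.052 ± 0.16. The helper list had 12 of 14 genes higher, with a median of 0.12.

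Costimulatory and checkpoint receptors had 17 of 19 genes higher (62.4% of all genes were) and a median of 0.13. An unadjusted p under 0.05 with a higher mean was reached by 4 of the 19, against 4.55% of all genes. CD40LG, the helper signal to B cells, differed by 0.22 ± 0.070 (SE), TNFRSF25, a death-domain receptor of T cells, by 0.23 ± 0.093 and CD80, the ligand of CD28 on antigen-presenting cells, by 0.65 ± 0.29. Cytotoxic and natural killer genes had 21 of 23 higher and the highest median of any list, 0.33. Their levels overlapped widely: the mean level of the list ran from 6.56 to 8.42 in CD3E-high nodes and from 6.72 to 7.95 in CD3E-low nodes. NCR3, an activating receptor of natural killer cells, differed by 0.22 ± 0.066, CD244 by 0.21 ± 0.069 and CD160 by 0.33 ± 0.12. GZMB, the granzyme of killer cells, ran from 4.99 through 6.33 to 10.13 against 4.92 through 6.52 to 8.90, so that its difference of 0.68 ± 0.66 was about the size of its error. T-zone chemokines and their receptors had 13 of 17 higher (median 0.23), with the T-zone chemokine CCL21 at 0.29 ± 0.18. The 4 lower members were CCR2 (-0.70 ± 0.39), CCR7 (-0.57 ± 0.30), CCR4 (-0.54 ± 0.38) and IL7 (-0.34 ± 0.28). At an unadjusted p under 0.05, 1 was higher, CXCL12 (0.79 ± 0.30), and 0 were lower.

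**Figure D3:**
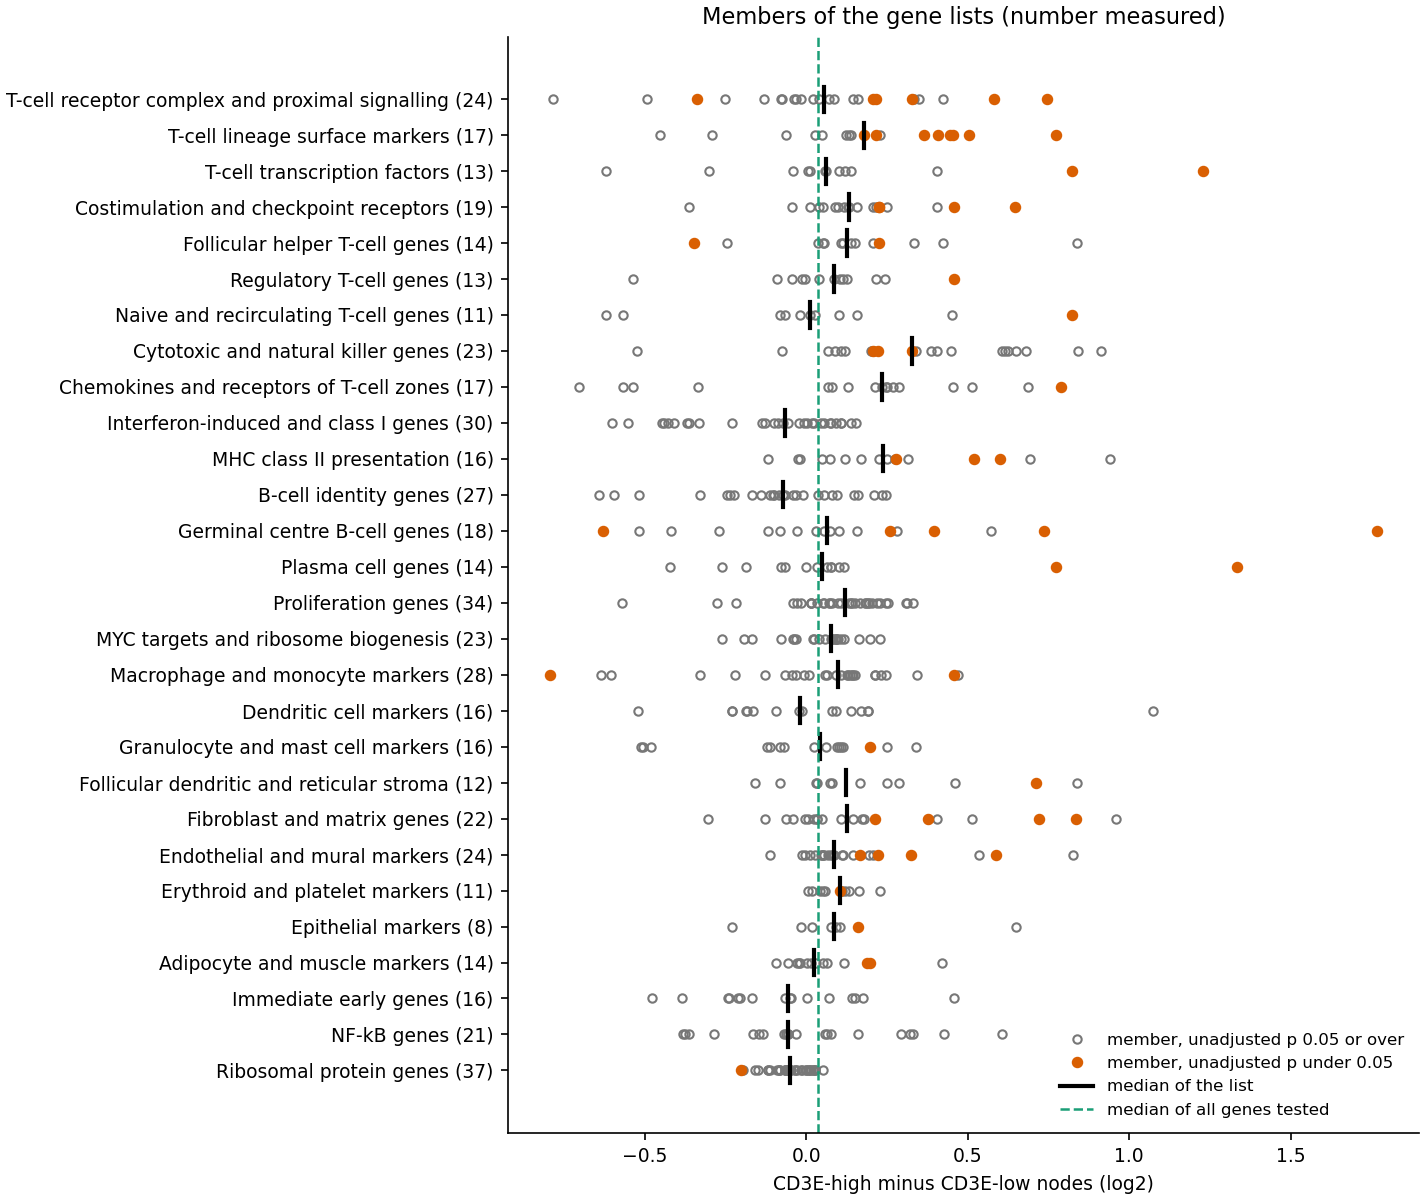
Difference between CD3E-high and CD3E-low nodes (log2) for each measured member of the 28 gene lists, with members at an unadjusted p under 0.05 filled, the median of each list as a bar and the median of all genes (0.036) as a dashed line. The cytotoxic and natural killer list has the highest median (0.33), and B-cell identity genes (-0.073), interferon-induced genes (-0.065) and NF-kB genes (-0.057) lie below 0.

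No gene of the B cells themselves passed. Of 27 B-cell identity genes 9 were higher and 18 lower, with a median of -0.073 and 0 at an unadjusted p under 0.05 in either direction. Among all genes 62.4% were higher, with a median of 0.036. MS4A1, the gene of CD20, ran from 6.96 through 12.74 to 13.49 in CD3E-high nodes and from 11.72 through 12.79 to 13.12 in CD3E-low nodes (-0.52 ± 0.59, SE). Dog 22 alone made the low end, and the next CD3E-high node stood at 11.76. CD79A, a chain of the B-cell receptor, differed by -0.17 ± 0.47. Germinal centre genes had 11 of 18 higher (median 0.063), with MME, the gene of CD10, at 0.26 ± 0.078, the surface enzyme CD38 at 0.74 ± 0.24, the histone methyltransferase EZH2 at 0.40 ± 0.18 and the repressor BCL6 at 0.57 ± 0.38. The other 7 were lower, among them ELL3 (-0.63 ± 0.29), STAP1 (-0.52 ± 0.40) and BCL7A (-0.42 ± 0.22). At an unadjusted p under 0.05, 4 members were higher and 1, ELL3, was lower, against 4.55% and 1.10% of all genes. RGS13, a regulator of chemokine signalling in germinal centre B cells, had the largest positive difference of all genes, 1.77 ± 0.83, and was named for that after its values were seen. It ran from 3.49 through 3.88 to 11.47 in CD3E-high nodes and from 3.64 through 3.82 to 4.47 in CD3E-low nodes. Its medians were nearly equal, and the difference came from the 4 CD3E-high nodes of dogs 2, 53, 10 and 41, at 11.47, 8.79, 7.45 and 6.21. JCHAIN, the joining chain of secreted antibody, ran from 10.12 through 12.91 to 13.80 against 9.82 through 11.36 to 12.65 and differed by 1.33 ± 0.48, while the plasma cell list had 8 of 14 genes higher and a median of 0.048.

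The MHC class II pathway, by which antigen-presenting cells display peptide to helper T cells, had 13 of 16 higher (62.4% of all genes were) and a median of 0.24, with 3 higher at an unadjusted p under 0.05 (4.55% of all genes). These 3 turned sign when nodes were ranked by CD3D, CD3G, CD2 and CD5 (HLA-DRB1 -0.029, DLA-DQB1 -0.25, DLA-DMA -0.065). HLA-DRB1, as the array names a class II beta chain, ran from 13.80 through 14.21 to 14.47 against 13.31 through 14.01 to 14.22 and differed by 0.28 ± 0.11 (SE). DLA-DQB1 differed by 0.52 ± 0.22 and DLA-DMA, of the peptide exchange factor, by 0.60 ± 0.28. CD74, the invariant chain, differed by -0.026 ± 0.40. Interferon-induced and class I genes had 12 of 30 higher and a median of -0.065. Proliferation genes had 28 of 34 higher, with a median of 0.12 and 0 at an unadjusted p under 0.05, MYC differed by -0.26 ± 0.21 and MYC targets had a median of 0.076. NF-kB genes, immediate early genes and ribosomal protein genes had medians of -0.057, -0.057 and -0.052.

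Markers of other cells of the node were read beside these values, against 62.4% of all genes higher. Endothelial and mural markers had 21 of 24 higher (median 0.085) and a mean level of 6.53 to 6.99 in CD3E-high nodes against 6.48 to 6.84 in CD3E-low nodes. FLT1, a vascular growth factor receptor, differed by 0.33 ± 0.12 (SE), TAGLN by 0.22 ± 0.077, MYH11, of smooth muscle, by 0.59 ± 0.22 and PECAM1, an endothelial junction gene, by 0.82 ± 0.45. Probe sets of TAGLN (-0.15 to 0.22) and MYH11 (-0.18 to 0.59) pointed both ways. Fibroblast and matrix genes had 17 of 22 higher (median 0.13; mean level 6.74 to 7.60 against 6.64 to 7.40), with PDGFRA at 0.21 ± 0.085, SPARC at 0.72 ± 0.29, DCN at 0.38 ± 0.16 and COL1A1 at 0.96 ± 0.51. Follicular dendritic and reticular stroma had 10 of 12 higher (0.12; 8.68 to 9.41 against 8.41 to 9.29) and erythroid and platelet markers 11 of 11 (0.11; 6.77 to 7.46 against 6.84 to 7.46). Macrophage markers had 18 of 28 higher and 10 lower (median 0.10, mean level 8.16 to 9.49 against 8.28 to 9.24), with CD14 at 0.25 ± 0.17. At an unadjusted p under 0.05, 1 was higher, MARCO (0.46 ± 0.19), and 1 lower, TLR4 (-0.80 ± 0.32). MSR1 (-0.64 ± 0.33) and C1QA (-0.61 ± 0.34) were among the other lower members. Dendritic cell markers had 7 of 16 (median -0.018), granulocyte and mast cell markers 9 of 16 (0.043), epithelial markers 6 of 8 (0.084) and adipocyte and muscle markers 9 of 14 (0.023), among them MB (0.19 ± 0.064) and PLIN1 (0.20 ± 0.075). Ranked by the other CD3E probe set, PECAM1 (-0.11), TAGLN (-0.026), MYH11 (-0.015), PDGFRA (-0.025), SPARC (-0.19), MB (-0.056) and PLIN1 (-0.029) turned sign. FLT1, DCN, COL1A1 and CD14 kept theirs. Ranked by CD3D, CD3G, CD2 and CD5, PECAM1 (-0.91) and MB (-0.0086) turned sign. No member of these lists passed. The part of these cells in the T-cell differences was not tested.

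The remaining genes with the smallest p did not pass either. Higher in CD3E-high nodes were ABCB1, the drug efflux pump also known as P-glycoprotein, from 4.73 through 5.16 to 6.20 against 4.29 through 4.56 to 4.80 (0.64 ± 0.15, SE; adjusted p = 0.857), and PRKCH, a protein kinase C of T cells and epithelia (0.38 ± 0.095). All 10 CD3E-high nodes lay above the CD3E-low median for both. The small GTPase gene RHOU (0.25), TMLHE of carnitine synthesis (0.45), GP2 (0.26), MOCS1 (0.20), HECW1 (0.19) and CYP4A37 (0.17) had smaller differences. HECW1 turned sign in its second probe set (-0.11).

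On the lower side stood LPIN1, a phosphatidate phosphatase of lipid synthesis, which ran from 6.09 through 6.63 to 7.61 in CD3E-high nodes and from 7.18 through 7.41 to 8.00 in CD3E-low nodes. The difference was -0.83 ± 0.17 (SE, adjusted p = 0.857), with 1 CD3E-high node above the CD3E-low median. DDIT4, a stress-induced inhibitor of mTOR, ran from 6.73 through 7.24 to 8.10 against 7.58 through 8.15 to 9.49 and differed by -0.86 ± 0.21, with 0 of 10 nodes above. MYEF2, an RNA-binding repressor, ran from 5.50 through 7.37 to 9.20 against 8.32 through 9.00 to 9.41. The CD3E-low nodes were tightly grouped for MYEF2 (SD 0.37) and the CD3E-high nodes were not (SD 1.35), and the difference was -1.52 ± 0.42. BMPR1A, a receptor of bone morphogenetic proteins (-0.70), the actin regulator CARMIL1 (-0.54), WSCD2 (-0.73), CREBL2 (-0.53), the scaffold SLC9A3R2 (-0.52), UBAC2 (-0.36) and the recombination gene RAD51D (-0.34) completed the 10.

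Fitted as a slope over all 32 nodes instead of 2 groups, CD3E had genes past the threshold. Limma called 16 genes with a positive slope (0.106% of all genes) and 1 with a negative slope (0.00662%), with Benjamini-Hochberg adjustment. LOC609053 rose by 2.99 ± 0.35 (SE) per unit of CD3E (adjusted p = 1.38e-05), LOC480788 by 2.57 ± 0.40 (0.000806), LOC607937 by 1.99 ± 0.27 (0.000147) and LOC607750 by 0.83 ± 0.13 (0.00109). LEF1 rose by 2.06 ± 0.27 (5.16e-05), CD27 by 1.80 ± 0.29 (0.00109), PTGDR by 0.93 ± 0.14 (0.000353), CD5 by 0.78 ± 0.14 (0.00442) and CD7 by 1.12 ± 0.20 (0.00614). CD52, a small surface glycoprotein of lymphocytes (1.30, adjusted p = 0.00201), SIT1 (1.09, 0.00786), CD40LG (0.49, 0.00983), DPP4, a surface peptidase (0.90, 0.0128), CSTA, a protease inhibitor (1.63, 0.0379), PRKCQ (0.53, 0.0435) and PRKCH (0.69, 0.0435) were the other positive slopes. MYEF2 fell, at -2.73 ± 0.56 (0.0335). Without dogs 32 and 39, the nodes farthest from the median, 5 genes passed. They were LOC609053 (2.87, adjusted p = 0.0188), LOC480788 (3.14, 0.0188), LOC607937 (2.37, 0.00660), CD27 (2.13, 0.0443) and ABCB1 (1.87, 0.000268), and 4 of the 17 were among them. Among the lost calls the slope was larger for CD5 (0.94), PTGDR (0.99), SIT1 (1.25) and PRKCH (0.94) and smaller for LEF1 (1.63), CD7 (0.83), CD52 (0.71) and CSTA (0.40). In the 12 middle nodes alone limma called 0 genes, with 486 at an unadjusted p under 0.05. Dog 32 held the highest CD52 (8.16, next 6.60) and CSTA (7.52, next 4.89) of the CD3E-high nodes.

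The relation to CD3E was then examined in dogs that had no part in choosing the groups, the 19 aspirates and 7 MZL nodes, where CD3E ran from 9.11 to 10.54. Limma called 13 positive slopes (0.0860% of all genes) and 1 negative (0.00662%), with 1323 genes at an unadjusted p under 0.05. CD28 rose by 1.12 ± 0.17 (SE) per unit of CD3E (adjusted p = 0.00451), PRKCQ by 0.71 ± 0.11 (0.00451), THEMIS by 0.69 ± 0.11 (0.00451) and IL21, a cytokine of follicular helper T cells, by 1.69 ± 0.27 (0.00451). CD5 rose by 0.93 ± 0.15 (0.00546), LOC607937 by 1.86 ± 0.31 (0.00546), the transcriptional repressor GFI1 by 0.60 ± 0.099 (0.00546), CD6, a relative of CD5, by 0.59 ± 0.10 (0.00870), LOC607750 by 1.18 ± 0.22 (0.0193) and CD27 by 2.28 ± 0.45 (0.0388). LOC476394 (1.22, 0.0388), the costimulatory receptor TNFRSF4 (1.02, 0.0417) and the channel subunit KCNMB4 (0.57, 0.0417) rose too, and ADSL, an enzyme of purine synthesis, fell, at -0.70 ± 0.14 (0.0478). Without the 2 samples farthest from the median CD3E level, the aspirate of dog 31 and the MZL node of dog 43, limma called 0 genes (989 had an unadjusted p under 0.05). In aspirates alone it also called 0 (1050 had an unadjusted p under 0.05). The slopes without these 2 samples kept their sign for CD28 (0.87), THEMIS (0.57), CD5 (0.85), CD27 (1.64), PRKCQ (0.66) and LOC607937 (1.62).

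The DLBCL nodes and the other samples share no dog. Of the 17 genes called in the nodes, 16 had the same sign outside, all 16 at an unadjusted p under 0.05, and MYEF2 had the opposite sign (0.40 ± 0.42, SE). CD5, CD27, PRKCQ, LOC607750 and LOC607937 were called in both, 5 of 17 (29.4%) of the node calls and 5 of 14 (35.7%) of the calls outside. The slopes of TNFRSF4 (0.050 in the nodes) and ADSL (-0.075) were near 0 in the nodes. Of the 687 genes with a higher mean at an unadjusted p under 0.05 in CD3E-high nodes, 507 (73.8%) had a positive slope outside, against 50.2% of all genes, and of the 166 lower genes 91 (54.8%) had a negative slope. A direct test of whether slopes differed between DLBCL nodes and aspirates called 0 of 15114 genes in limma, with 670 at an unadjusted p under 0.05 and a smallest adjusted p of 0.354. MYEF2 was among those with that adjusted p, with -2.73 in nodes and 0.75 in aspirates.

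**Figure D4:**
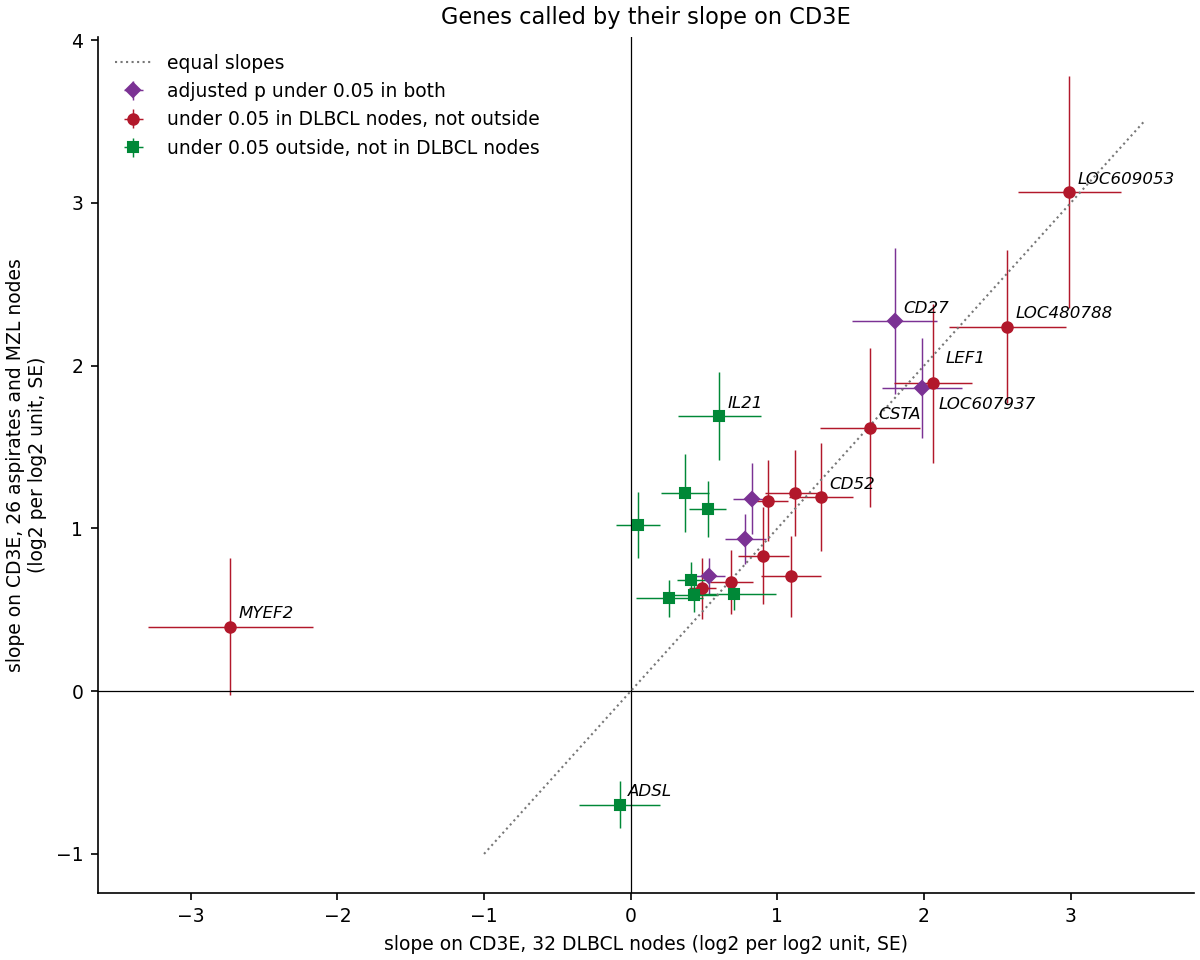
Slope on CD3E (log2 per log2 unit, bars are SE) in 32 DLBCL nodes (horizontal) and in 26 aspirates and MZL nodes (vertical) for the 26 genes called in either, with the dotted line marking equal slopes. Most points lie near that line in the upper right, while MYEF2 lies at -2.73 and 0.40.

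Gene lists were then read by their slopes outside the DLBCL nodes. Of all 15114 genes 50.2% had a positive slope there, and 0.0860% were called with one. A negative slope at an unadjusted p under 0.05 was found for 764 of all genes. T-cell receptor and signalling genes had a median slope of 0.61 with 20 of 24 positive, 2 of them called. T-cell surface markers had 0.59 with 16 of 17 positive, 4 of them called. Cytotoxic genes had 21 of 23 positive (median 0.36, 0 called). Proliferation genes had 33 of 34 slopes at or below 0 with a median of -0.68 and 0 called, 20 of them at an unadjusted p under 0.05, whereas their median slope in the 32 nodes was -0.086. The difference in list medians was not tested. CD3D (-0.033 ± 0.45, SE) and CD3G (0.48 ± 0.74) had slopes within their errors outside. CD247 had 1.19 ± 0.55 (limma, unadjusted p = 0.0383, adjusted p = 0.535), but 0.50 without the 2 farthest samples and 0.66 in aspirates alone. In the 19 aspirates CD3E and CD3D correlated at r = 0.038 (permutation p = 0.879) and rho = -0.072 (permutation p = 0.772). CD3E and CD247 correlated there at r = 0.22 (permutation p = 0.370).

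IGHV status, a label of the variable segments of the immunoglobulin heavy chain given as static or ongoing, was set against the groups. CD3E-high nodes had 5 static and 5 ongoing tumours and CD3E-low nodes 7 static and 3 ongoing. The odds of static status were 0.429 times as high in CD3E-high nodes, a difference that did not pass (2-sided Fisher's exact test, p = 0.650). With IGHV status as a covariate limma still called 0 genes, with 786 at an unadjusted p under 0.05.

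Outcome was known for 9 CD3E-high and 10 CD3E-low dogs, in a time unit that the labels do not give. In CD3E-high dogs 6 of 9 had a progression event and the median progression-free survival was 357, while in CD3E-low dogs 10 of 10 had one and the median was 158. The hazard ratio of CD3E-high over CD3E-low was 0.534 (95% interval 0.189 to 1.51), which did not pass (2-sided exact permutation log-rank test, p = 0.248). For overall survival there were 4 deaths among 9 dogs (median 505) and 8 among 10 (median 215), with a hazard ratio of 0.598 (0.178 to 2.01; exact permutation p = 0.409). Ranked by the other CD3E probe set, the ratio for death was 0.998 (medians 206 and 240). The progression-free curves crossed at 142, shortly before the CD3E-low median of 158, and until then the CD3E-high curve was the lower. The shortest progression-free times were 24, 58 and 93 in CD3E-high dogs and 70 in CD3E-low dogs. Per unit of CD3E over the 30 DLBCL dogs with an outcome, the hazard ratio was 0.534 (0.112 to 2.55) for progression (permutation p = 0.443) and 0.257 (0.0351 to 1.88) for death (permutation p = 0.203). Outside the DLBCL nodes the ratios were 0.728 (0.191 to 2.78; 25 dogs, permutation p = 0.653) and 0.945 (0.201 to 4.44; 26 dogs, permutation p = 0.947). Every one of these intervals includes 1.

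**Figure D5:**
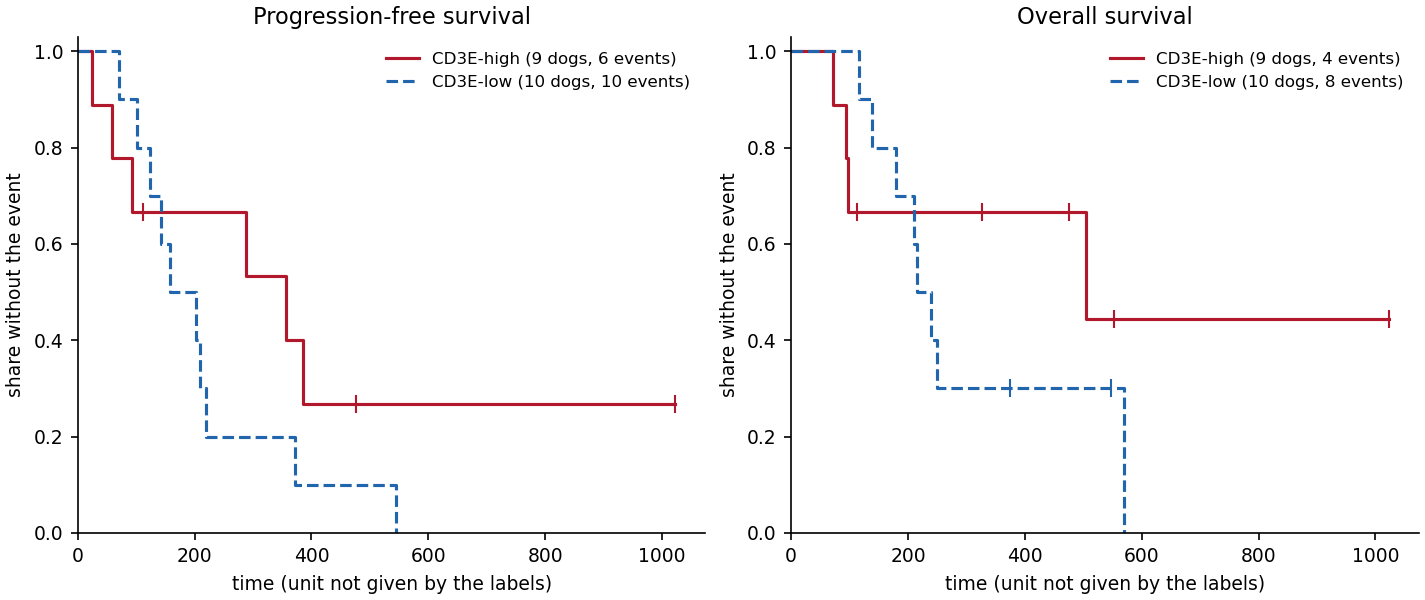
Kaplan-Meier curves of progression-free survival (left) and overall survival (right) for CD3E-high (solid) and CD3E-low dogs (dashed), as the share of dogs without the event against time in the unit of the labels, with ticks at censored dogs. The median progression-free times are 357 and 158 and the median overall times 505 and 215.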

How the data were processed

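The deposited table holds log2 values for 58 arrays and 43035 probe sets. Per the submitters' processing notes the authors used RMA and Affymetrix Expression Console; no source used here names a version. Values ran from 2.82 to 15.11. A platform table gave 1 gene symbol to 29254 probe sets, several to 439 and none to 13167, and 175 were controls. A gene was read from its probe set with the highest mean, which gave 15115 genes (8254 with more than 1 probe set), and 15114 were tested without CD3E. RefSeq (assembly UU_Cfam_GSD_1.0) served for names and neighbours only. No dog gave more than 1 array, and p-values measure the spread between dogs; the number of arrays limits the precision.

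Linear models used limma 3.58.1 in R 4.3.3, 2-sided, with Benjamini-Hochberg adjustment over all genes at 0.05; the slope outside the DLBCL nodes held the sample group as a covariate. The limma group and slope fits were tested on simulated data. Outcome used log-rank statistics over every assignment of dogs, or Cox score tests with 100000 permutations (events were taken as indicator 1), written in Python. Figures used matplotlib 3.10.9 in Python 3.11.15.

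The members and gene lists were chosen with earlier results of these data known. Genes named are the 10 with the smallest p in each direction, because none passed (no LOC symbols), and 25 preset genes, of which 22 were measured under 1 symbol; list examples (up to 3 with the smallest p, from lists with at least 2 at an unadjusted p under 0.05 in 1 direction) and receptor segments were added after values were seen. Alternatives covered the ranking, group size, probe sets, filter, centring, covariate and single nodes.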

Additional observations from a re-analysis of the deposited data

Results flagged for a closer look

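Of 162 sets of 10 values examined (CD3E, the genes described in nodes and RNA integrity, in each group), 15 held a sample whose gap to the next was large for the range; chance gives about 1 in 20. In CD3E-high nodes dog 32 stood apart for CD3E (10.19, next 9.77), CD52 (8.16) and CSTA (7.52), dog 22 for MS4A1 (6.96, next 11.76), dog 6 for TMLHE (6.74), dog 13 for the V segment entry LOC607467 (14.19, next 10.76) and dog 41 for the 3' minus 5' difference (3.77, next 0.64). In CD3E-low nodes dog 25 stood apart for CD3D (11.56), CD3G (8.65, next 10.75), GZMB (8.90, next 6.97), PDCD1 (7.67, next 6.62) and RGS13 (4.47). Dog 55 stood apart for CD2 (9.70, next 11.03), dog 14 for CD74 (10.76, next 12.62) and dog 39 for CD3E (8.82, next 9.08). Dog 25 thus combined the lowest CD3D and CD3G of its group with the highest GZMB and PDCD1.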

How the results depend on the processing

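Direction was kept in 866 of 913 comparisons of a gene with an alternative, and 47 reversed. Ranked by CD3D, CD3G, CD2 and CD5, 21 reversed: HECW1 (-0.0066), PRKCH (-0.12), CYP4A37 (-0.035), BMPR1A (0.00754), CARMIL1 (0.12), MYEF2 (0.073), SLC9A3R2 (0.31), WSCD2 (0.26), RAD51D (0.11), CD8A (-0.10), FOXP3 (0.018), GZMB (-0.61), PDCD1 (-0.17), CD79A (0.18), PECAM1 (-0.91), HLA-DRB1 (-0.029), DLA-DQB1 (-0.25), DLA-DMA (-0.065), EZH2 (-0.034), MB (-0.0086) and PRKCQ (-0.064); so did the IGHV odds ratio (1.60, exact p = 1). Ranked by the other CD3E probe set, an alternative added after seeing the data, 16 reversed: RHOU (-0.0565), CYP4A37 (-0.033), DDIT4 (0.16), CREBL2 (0.19), WSCD2 (0.16), FOXP3 (0.00306), CD79A (1.13), CD74 (1.51), PECAM1 (-0.11), PDGFRA (-0.025), SPARC (-0.19), TAGLN (-0.026), MYH11 (-0.015), MB (-0.0559), PLIN1 (-0.029) and LOC607467 (0.58). TCF7 reversed with the IGHV covariate (-0.00348), centring (-0.00725) and the slope over 32 nodes (-0.023), FOXP3 with the covariate (0.0016) and with 16 against 16 nodes (0.012), CD74 with 16 against 16 (0.23), without dog 41 (0.17) and by slope without 2 nodes (0.60), CD79A by that slope (0.14) and CD3D by the slope over 32 nodes (0.021). The count of genes past the threshold was 0 and became 17 by slope over 32 nodes, 5 by that slope without 2 nodes (also added after seeing the data) and 2 by the 4-gene ranking; it was 0 without any one node. Genes higher at an unadjusted p under 0.05 numbered 687 and became 1160 with 8 against 8, 441 by the 4-gene ranking and 220 with the filter on level; those lower numbered 166 and became 411, 543 and 108, and 925 by the other CD3E probe set. Leaving out single nodes gave 451 to 1155 higher and 118 to 322 lower. Outside the DLBCL nodes 14 calls became 0 in aspirates alone and 0 without the 2 farthest samples (added after seeing the data). Of 896 list medians 13 moved by over 1 SD between nodes. Hazard ratios stayed under 1 and no outcome test passed under any alternative, but ranked by the other CD3E probe set the ratio for death was 0.998 (medians 206 and 240, against 0.598 in the CD3E ranking), and by the 4-gene ranking the progression medians were 158 in high and 174 in low nodes. The causes of these changes were not tested. No paired analysis was possible because no groups share replicate numbers. Values near the low end of the scale have no measure of background here.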

Other observations

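A V segment entry outside the DAD1 cluster, LOC607467, chosen after its values were seen, had the largest negative difference of all genes between the groups, -2.21 ± 1.08 (SE, limma adjusted p = 0.857). It ran from 7.87 through 8.34 to 14.19 in CD3E-high nodes and from 7.34 through 12.55 to 14.48 in CD3E-low nodes. Of the 20 nodes, 5 CD3E-low nodes (dogs 50, 56, 18, 25 and 39) and 1 CD3E-high node (dog 13) lay at 13.95 or above. Its 14 probe sets differed by -2.39 to 0.79, with 8 of them higher in CD3E-high nodes. LOC608379, a V segment entry of another cluster and also chosen after its values were seen, differed by 1.08 ± 0.39 the other way, with 7.23 ± 1.26 (SD, n = 10) against 6.15 ± 0.29.

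Ranking the nodes by the mean of CD3D, CD3G, CD2 and CD5 in place of CD3E gave other groups: 4 of its 10 highest and 2 of its 10 lowest nodes were CD3E-high and CD3E-low, and 3 CD3E-low nodes were among its 10 highest. Limma then called MYL9, a myosin light chain of smooth muscle, as higher (0.81, adjusted p = 0.0268) and PDE8A, a phosphodiesterase, as lower (-0.80, adjusted p = 0.00958), which differed by -0.084 and 0.030 between CD3E-high and CD3E-low nodes.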
